A study of Mus musculus with 20 samples.

Results

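Liver RNA of 129P2/OlaHsd mice (129P2 here) was compared with liver RNA of C57/Bl6 mice (B6 here) on whole-transcript microarrays, 5 arrays against 5, out of 20 arrays in the study. The samples were chosen by the strain given in their labels, and the comparison was read across the 21789 of 35556 probe sets that carry 1 gene symbol, which stand for 19938 genes. Both groups were of 6-week-old males fed, from weaning at 21 days, a diet in which fat supplied 45% of the energy, and the other 10 arrays are 5 of C3H and 5 of NZO mice kept in the same way. No animal was treated or mutated by design, so the strain is the only labelled difference. Each sample title carries a number of its own, but the labels do not state that it marks an animal, and p-values measure the spread between these samples.

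C57/Bl6 and 129P2/OlaHsd are inbred lines of separate origin, so a locus at which they carry different alleles differs between all animals of one line and all animals of the other. The liver is a tissue in which such lines are known to differ in drug-metabolising cytochrome P450 enzymes, in secreted plasma proteins and in genes of lipid handling. Type I interferon acts through STAT and IRF factors on a large set of antiviral genes, sterol levels act through SREBP2 on the enzymes of cholesterol synthesis, and insulin and dietary sugar act through SREBP1c and ChREBP on fatty acid synthesis.

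Values are log2 levels, on which 1 unit is a factor of 2, and every difference below is 129P2 minus B6. A value under the 40th percentile of all probe sets on its array is called dim, and a gene was tested where 5 or more of the 20 arrays were not dim. A gene was called at an adjusted p under 0.05 (limma over all 4 strains, Benjamini-Hochberg over 14190 tested genes). Standard errors (SE) are those of that fit, and n is 5 arrays a strain throughout. The number of arrays limits the precision, with a median SE of 0.0914. Sequence differences between the strains under the probes were not tested, so for a single probe set a difference in transcript level and one in hybridization cannot be told apart.

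The 129P2 arrays were narrower than the B6 arrays. Over all probe sets, an array's interquartile range was 2.32 ± 0.0726 in 129P2 and 2.43 ± 0.0574 in B6 (mean log2 units ± SD), a difference of -0.111 (exact two-sided permutation p = 0.0238 over 252 relabellings). 129P2 replicate 2 had the narrowest array of the 10 (2.192), and the ranges of both strains overlapped, at 2.192 to 2.37 in 129P2 and 2.34 to 2.479 in B6. Because 49.0% of all tested genes followed this spread across the 20 arrays, the counts of called genes in each list are also given with the array spread as a covariate, as are the named calls that it ended. Whether the spread is technical or belongs to the strains cannot be told apart.

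Of the 14190 tested genes, 879 were called (6.19%). In 129P2 liver 300 were higher (2.11%) and 579 lower (4.08%), while the median difference over all tested genes was 0.00296. A called difference of 2-fold or more was found for 77 genes (0.543%), of which 25 were higher and 52 lower. For 661 of the called genes (4.66% of those tested) the 5 values of one strain all lay beyond the 5 of the other. With the array spread as a covariate 940 genes were called (6.62%), and the balance turned to 517 higher (3.64%) and 423 lower (2.98%). Both fits shared 603 calls with the same sign (4.25%), 242 higher and 361 lower, which is 68.6% of the 879.

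**Figure D1:**
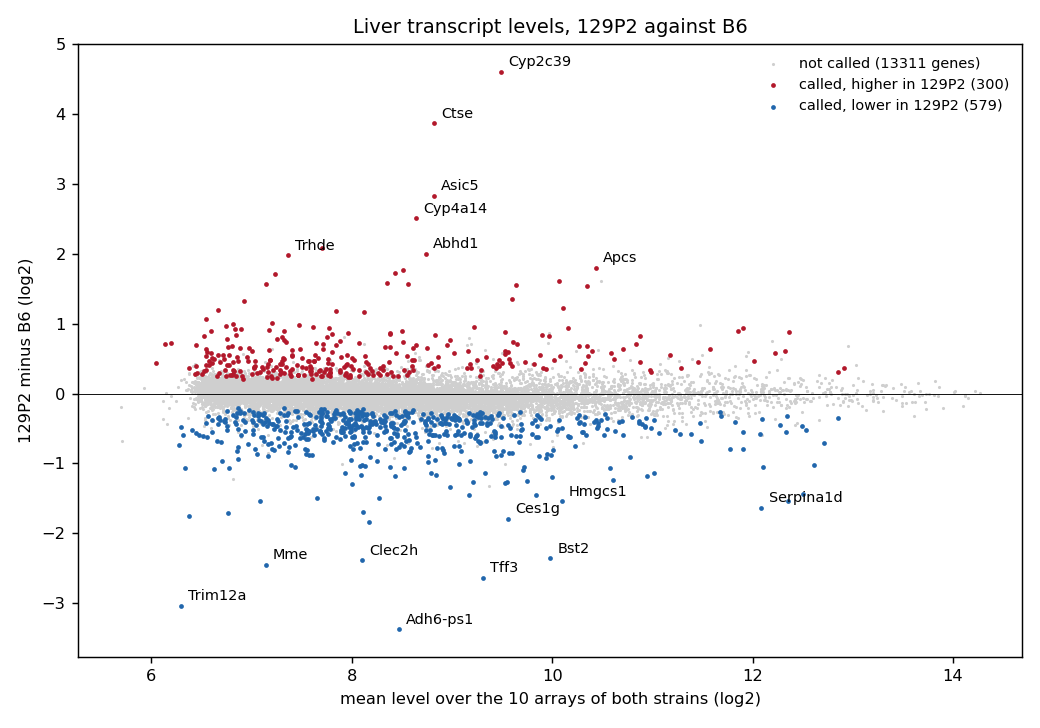
Difference between 129P2 and B6 liver (vertical axis, log2) against the mean level over the 10 arrays of both strains (horizontal axis, log2), 1 point for each of 14190 tested genes. Red and blue points are the 300 genes called higher and the 579 called lower in 129P2, and Cyp2c39 and Adh6-ps1 mark the ends of the range.

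The genes furthest above their B6 level in 129P2 liver were led by a drug-metabolising enzyme and a protease. Cyp2c39, a cytochrome P450 of the family that oxidises drugs and retinoids (probe set 10463037), had levels of 11.95, 11.35, 12.39, 12.09 and 11.19 in 129P2 replicates 1 to 5 and of 7.01, 7.01, 7.47, 7.33 and 7.12 in B6 replicates 1 to 5. All 129P2 arrays were far above all B6 arrays, and the difference of 4.61 (95% interval 3.93 to 5.29) was 24.4-fold, with an adjusted p of 1.55e-09 in limma's test. C3H lay between both at 8.71 ± 0.803 and NZO at 10.11 ± 0.72 (mean ± SD). Levels of C3H and NZO are given as a description, and no difference from them was tested. Ctse, which encodes cathepsin E, an aspartic protease of the endosomal system (probe set 10349648), stood at 10.96, 9.73, 11.57, 10.89 and 10.64 in 129P2 and at 6.88, 6.78, 7.01, 6.81 and 6.93 in B6. The B6 values lay close together, the 129P2 values were spread more widely with replicate 2 lowest, and the difference was 3.87 (SE 0.19, 14.7-fold, limma adjusted p = 2.52e-12). Asic5, a member of the acid-sensing ion channel family that bile acids can open, was at 10.3, 10.35, 10.18, 10.06 and 10.28 in 129P2 against 7.48, 7.28, 7.41, 7.44 and 7.396 in B6. Its groups were tight and far apart, at 7.13-fold (limma adjusted p = 1.78e-14), and C3H was at the 129P2 level (10.15 ± 0.25) while NZO was near that of B6 (7.62 ± 0.19).

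Levels of the next genes in this rank also divided the strains in different ways. Called genes with overlapping values, such as Cyp4a14 with a difference of 2.51, are not in the rank. Abhd1, an alpha/beta hydrolase domain protein, had 129P2 values of 9.69, 9.38, 10.002, 9.82 and 9.84 and B6 values of 7.89, 7.68, 7.65, 7.79 and 7.69, a difference of 2.01 (SE 0.11). C3H was high as well, at 9.93 ± 0.17, and NZO was low, at 7.75 ± 0.2. Trhde, the ectoenzyme that degrades thyrotropin-releasing hormone, was at 8.24, 8.0, 8.53, 8.63 and 8.39 in 129P2 and 6.17, 6.61, 5.88, 6.41 and 6.79 in B6, where 4 of 5 arrays were dim. The C3H mean of 6.63 ± 0.23 and the NZO mean of 6.57 ± 0.17 were near that of B6. Apcs, serum amyloid P, a pentraxin secreted by hepatocytes, was 3.49-fold higher in 129P2 (difference 1.81, SE 0.13), with C3H at 11.47 ± 0.15 and NZO at 11.95 ± 0.37, so that B6 had the lowest mean. Abca3, a phospholipid transporter of the ABC family, followed this pattern too: its 129P2 values of 10.33, 10.23, 10.54, 10.53 and 10.47 lay above the B6 values of 8.78, 8.46, 9.08, 9.01 and 9.01, and C3H and NZO had means of 10.04 ± 0.16 and 10.24 ± 0.12.

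Smaller leading increases ranged from 1.22 for Dhtkd1 to 1.71 for Prelid2. Dhtkd1, a mitochondrial 2-oxoadipate dehydrogenase subunit of lysine breakdown, was at 10.76, 10.54, 10.77, 10.66 and 10.87 in 129P2 and at 9.69, 9.38, 9.13, 9.73 and 9.56 in B6. Prelid2, of a family of mitochondrial lipid transfer proteins, was dim on 4 of the 5 B6 arrays. Slc17a8, a vesicular glutamate transporter, was 3.0-fold higher (SE 0.16 on the log2 scale). Slc6a16, an orphan transporter, was dim on all 5 B6 arrays, which makes its difference a bound of at least 2.56-fold. Abcb1b, a multidrug efflux pump, was dim there too, and was at least 2.03-fold higher in 129P2. A bound is the brighter strain's mean set against the mean 40th percentile of the dimmer strain's arrays.

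The leading genes furthest below B6 began with an alcohol dehydrogenase pseudogene by name, a TRIM family antiviral gene and a mucosal peptide. Serpina12, called lower with overlapping values, is not in this rank and is described further on. Adh6-ps1 (probe set 10496462) was at 6.96, 6.46, 7.01, 6.48 and 7.01 in 129P2 and at 10.41, 10.82, 9.02, 10.38 and 10.16 in B6. The groups were far apart, B6 replicate 3 was the lowest of its strain, and 2 of the 129P2 arrays were dim. Its difference of -3.37 (10.3-fold, limma adjusted p = 1.8e-10) was shared with C3H (6.91 ± 0.24) and NZO (7.16 ± 0.11) in the sense that their levels were as low as that of 129P2. Its neighbours in gene order, the alcohol dehydrogenases Adh1 and Adh4, had differences of -0.13 and 0.018 and were not called. Tff3, a trefoil peptide that protects mucosal surfaces, was at 7.94, 8.24, 7.82, 8.05 and 7.92 in 129P2 and 10.44, 9.76, 11.09, 11.51 and 10.35 in B6, with a wide spread in B6. C3H had the B6 level (11.34 ± 0.42) and NZO the 129P2 level (8.13 ± 0.29).

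Trim12a, a TRIM protein related to the retrovirus restriction factor TRIM5, was dim on all 5 129P2 arrays, at 4.83, 4.66, 4.995, 4.64 and 4.75, and stood at 8.56, 7.41, 7.83, 7.87 and 7.39 in B6. It was therefore at least 2.27-fold lower in 129P2, and its measured difference was -3.04 (limma adjusted p = 1.18e-11). Its levels in C3H (4.95 ± 0.204) and NZO (4.83 ± 0.14) were as low. The next TRIM gene among the leading ones, Trim30d, was dim on all 129P2 arrays as well and at least 1.54-fold lower. Mme, the membrane peptidase neprilysin, was at 6.15, 6.03, 5.75, 6.102 and 5.55 in 129P2, all dim, and at 8.18, 8.43, 8.24, 8.302 and 8.68 in B6, which gives a bound of at least 3.33-fold. Clec2h, a C-type lectin-like receptor, was 5.24-fold lower in 129P2 (difference -2.39, SE 0.17), with C3H (6.92 ± 0.27) and NZO (7.22 ± 0.17) near the 129P2 level. Pttg1, the separase inhibitor securin, was dim in 129P2 and at least 2.34-fold lower, and its C3H and NZO means were 6.38 ± 0.06 and 6.33 ± 0.105.

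Several of the genes lower in 129P2 encode abundant liver proteins. Ces1g, a carboxylesterase that hydrolyses triglycerides and xenobiotic esters, was at 8.49, 8.26, 8.69, 9.31 and 8.57 in 129P2 and at 10.598, 10.64, 10.17, 10.15 and 10.73 in B6. Replicate 4 was the highest of 129P2, and the difference was -1.79 (SE 0.22). C3H (10.47 ± 0.301) and NZO (10.29 ± 0.58) had levels near that of B6, so that 129P2 had the lowest mean. Serpina1d, an alpha-1 antitrypsin, was at 11.32, 11.32, 11.26, 11.01 and 11.45 in 129P2 against 13.01, 12.97, 12.74, 12.92 and 12.89 in B6, a 3.1-fold difference, and again 129P2 had the lowest mean (C3H 12.97 ± 0.06, NZO 12.87 ± 0.15). Mug2, a murinoglobulin that traps proteases, was 2.91-fold lower, and its second probe set gave a difference of -1.65 beside -1.54. Alpha-1 antitrypsins, murinoglobulins, carboxylesterases and Cyp2c genes are families of near-identical copies, and how far a probe set reads its named copy alone was not tested.

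Among the remaining leading genes lower in 129P2, the order by size ran from Nat8f5, an N-acetyltransferase family gene that was dim in 129P2 and at least 1.98-fold lower, to Nnmt. Nnmt, nicotinamide N-methyltransferase, was at 8.3, 7.61, 7.02, 7.32 and 7.36 in 129P2 and at 8.99, 8.82, 9.21, 9.17 and 8.88 in B6, with replicate 1 the highest of 129P2. Sucnr1, the succinate receptor, was 2.83-fold lower (SE 0.23 on the log2 scale), and Adgrf1, an adhesion G protein-coupled receptor, 3.25-fold lower (SE 0.23). Of the 60 tested genes next to the 30 leading genes in gene order, 10 were called. For comparison, 228 of the 1753 neighbours of all called genes were called, and 6.19% of all tested genes. Whether the leading genes differ in this from other called genes was not tested.

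**Figure D2:**
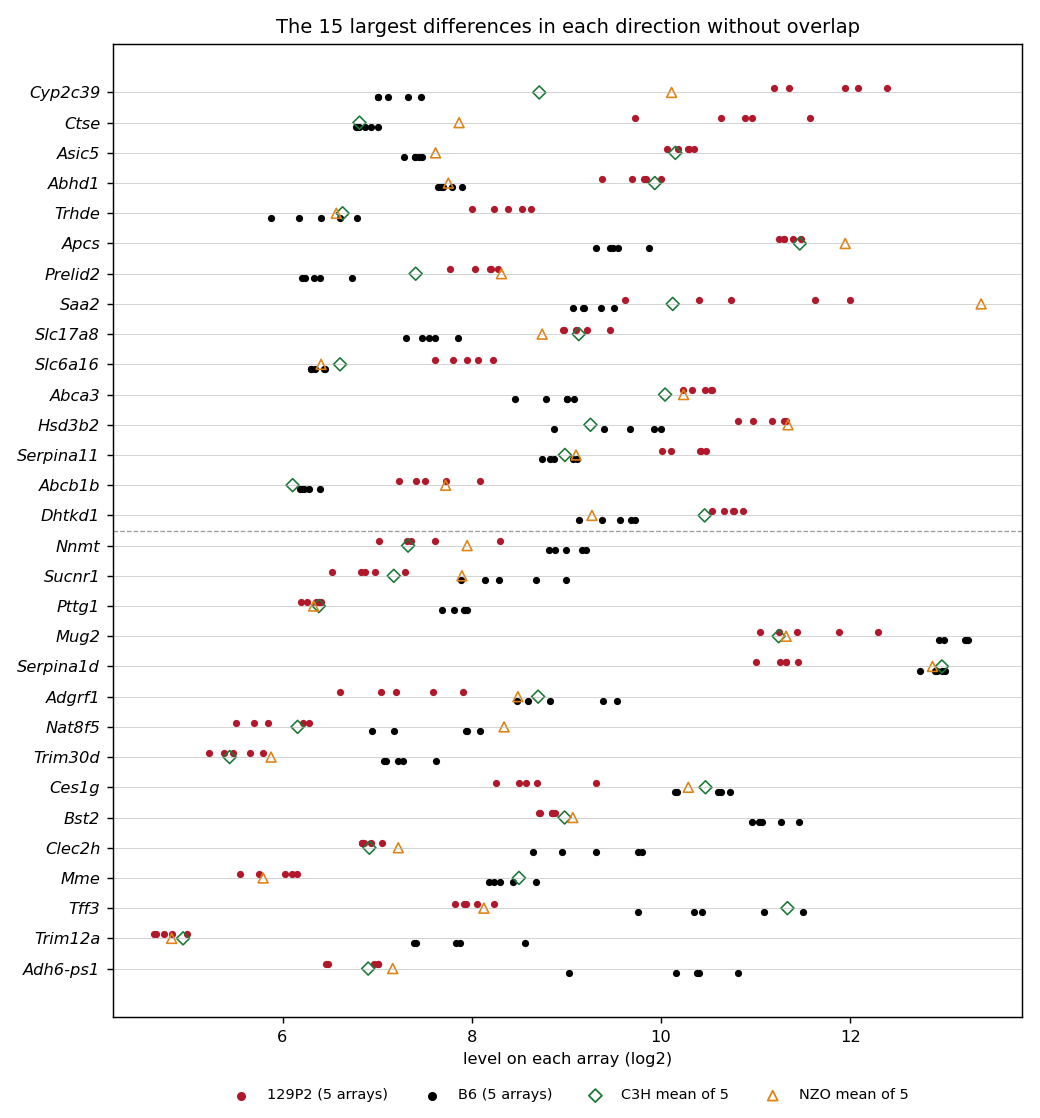
Levels (horizontal axis, log2) of the 15 genes with the largest differences in each direction, taken from called genes without overlap of the strains, with 1 red point for each 129P2 array, 1 black point for each B6 array, and open symbols for the means of 5 C3H (diamond) and 5 NZO (triangle) arrays. Genes above the dashed line were higher in 129P2, and for Bst2 and Trim12a both open symbols lie at the 129P2 end.

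Interferon-stimulated genes were lower in 129P2 liver as a group. This list and those below were chosen with earlier results of these data known. Shares set beside those over all tested genes therefore describe the lists and do not test them. Of 32 tested genes of that list, 22 were called lower and 0 higher, beside 4.08% lower and 2.11% higher over all tested genes, and 30 of 32 differences were negative, with a median of -0.58. In 21 of the 22 the 5 values of each strain did not overlap, beside 661 of all 879 called genes. The mean level of the 32 genes on an array ran from 7.38 to 7.73 in 129P2 and from 8.12 to 8.602 in B6, with C3H at 7.64 to 7.85 and NZO at 7.98 to 8.41. With the array spread as a covariate 19 were called lower (median -0.46), and when only the 10 arrays of both strains were fitted with that covariate, 6 were. In bulk tissue, fewer cells of a type and less RNA per cell cannot be told apart.

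The list was led by genes that act on virus particles and by a transcription factor of the pathway itself. Bst2, or tetherin, which holds budding virus at the cell surface (probe set 10579532), was at 8.85, 8.72, 8.88, 8.71 and 8.85 in 129P2 and at 11.26, 11.04, 11.45, 10.96 and 11.07 in B6. Each strain was tight, and the difference of -2.36 (95% interval -2.54 to -2.17, 5.12-fold, limma adjusted p = 1.78e-14) was many times its SE of 0.09. C3H (8.98 ± 0.13) and NZO (9.07 ± 0.08) were near the 129P2 level. Irf7, the factor that amplifies interferon production, had values of 8.23, 7.79, 8.41, 8.801 and 8.31 in 129P2 and 9.801, 9.36, 10.22, 9.34 and 9.53 in B6, with 129P2 replicate 2 lowest and B6 replicate 3 highest. Its difference was -1.34 (SE 0.196), C3H was low (8.68 ± 0.202) and NZO high (9.83 ± 0.44). Ifi27, a mitochondrial interferon-induced protein, was 2.37-fold lower in 129P2.

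Ifit1, Ifit2 and Ifit3, whose proteins act against foreign RNA, lie side by side and were lower. Ifit1 was at 7.56, 6.87, 7.42, 7.69 and 7.29 in 129P2 and 8.83, 8.56, 8.76, 8.05 and 8.33 in B6, a difference of -1.14 (SE 0.17). Ifit3 was at 7.499, 7.303, 7.65, 7.79 and 7.85 and 8.77, 8.67, 9.01, 8.33 and 8.48, a difference of -1.04 (SE 0.17). Ifit2 was dim on all 5 129P2 arrays and at least 1.07-fold lower. The groups did not overlap for any of these genes, and the NZO means of 8.44 ± 0.41 for Ifit1 and 8.25 ± 0.47 for Ifit3 were nearer to B6 than to 129P2.

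**Figure D3:**
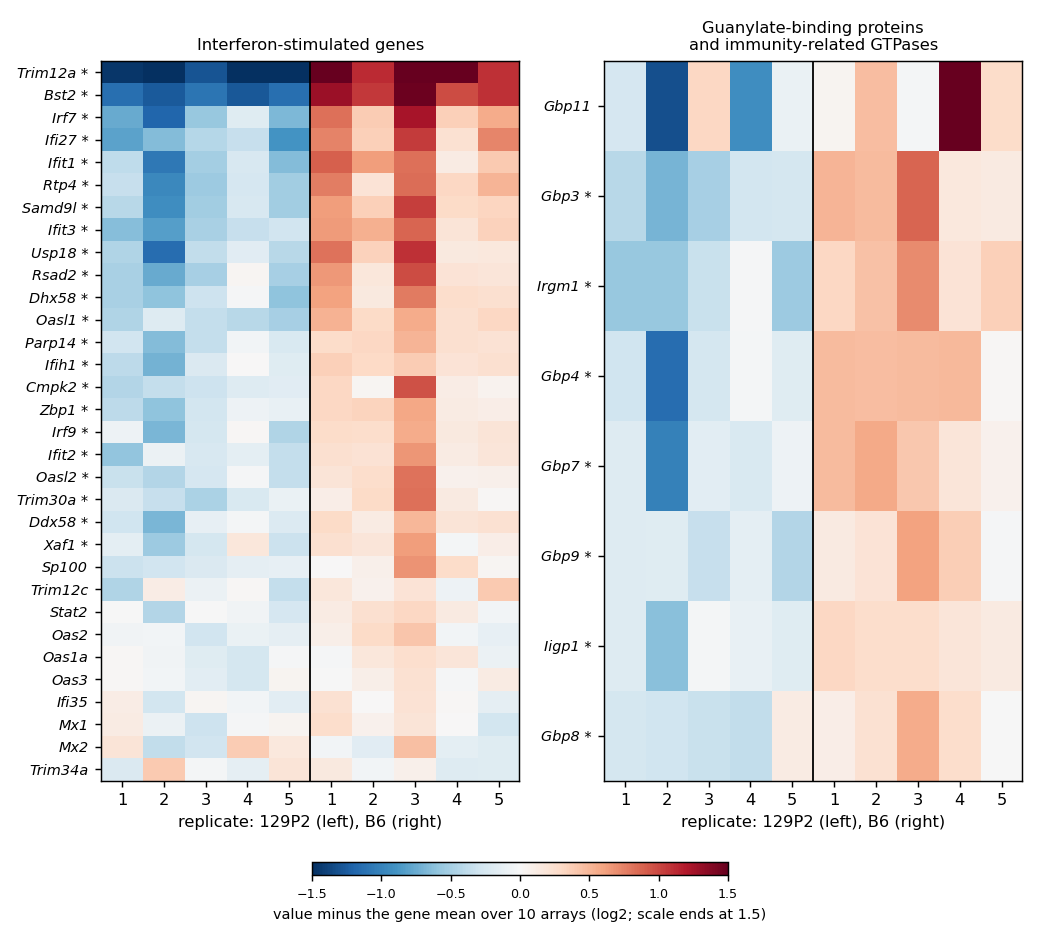
Heat maps of 32 interferon-stimulated genes (left) and 8 guanylate-binding proteins and immunity-related GTPases (right) on the 5 arrays of 129P2 and the 5 of B6, as the value minus the mean of the gene over the 10 arrays (log2, blue low and red high, colours saturated at 1.5), with called genes starred. The 129P2 columns are blue in the rows of the 22 and 7 called genes but for a few pale cells.

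The promoters of these genes were read for the motif that interferon-activated factors are known to bind. The letters GAAANNGAAA were searched on both strands in the 250 bases before the start of each gene in RefSeq (build GRCm38.p6, the reference strain C57BL/6J; 129P2 sequence was not used here). They were found in 9 of 23 tested genes of the list with a promoter sequence (39.1%), in 5 of the 16 called (31.2%) and 4 of the 7 not called (57.1%), in 3.0% of all tested genes with a promoter sequence and in 3.46% of 27025 genes overall. Genes called lower in 129P2 held them in 23 of 444 cases (5.18%) and genes called higher in 6 of 216 (2.78%). The windows below show the match with up to 40 bases on each side, on the strand of the gene, for genes chosen after their values were seen: 4 called lower and, for contrast, Oas1a, which was not called. Capitals mark the motif, which reads TTTCNNTTTC where it lies on the other strand, and runs of capitals over 10 bases are overlapping matches.
Bst2 (called, chr8:71537547-71537642, minus strand): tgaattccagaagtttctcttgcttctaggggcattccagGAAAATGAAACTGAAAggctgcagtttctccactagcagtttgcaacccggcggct
Ifit1 (called, chr19:34640745-34640853, plus strand): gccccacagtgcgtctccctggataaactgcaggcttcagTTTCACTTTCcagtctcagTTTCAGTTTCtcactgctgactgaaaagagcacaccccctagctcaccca
Ifit3 (called, chr19:34583333-34583456, plus strand): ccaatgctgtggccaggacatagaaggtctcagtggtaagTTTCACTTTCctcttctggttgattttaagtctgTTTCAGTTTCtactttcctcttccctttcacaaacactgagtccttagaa
Rsad2 (called, chr12:26456523-26456612, minus strand): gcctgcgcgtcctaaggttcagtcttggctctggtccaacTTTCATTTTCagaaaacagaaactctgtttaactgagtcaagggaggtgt
Oas1a (not called, chr5:120907526-120907585, minus strand): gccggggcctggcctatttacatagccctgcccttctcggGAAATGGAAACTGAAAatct

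The matches began 130 and 124 bases before the start in Bst2, 104 and 85 in Ifit1, 156 and 122 in Ifit3, 120 in Rsad2, and 20 and 14 in Oas1a. Rsad2, or viperin, which makes a chain-terminating nucleotide, was lower in 129P2, with a difference of -0.88 (limma adjusted p = 0.000684), whereas Oas1a, a sensor of double-stranded RNA, had a difference of -0.196 and no call. The motif was thus present in called and uncalled members, and a match is a description of the reference letters only.

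Interferon-gamma-responsive GTPases, which attack intracellular pathogens at their vacuoles, were lower as well. Of 8 tested guanylate-binding proteins and immunity-related GTPases, 7 were called lower and 0 higher, beside 4.08% and 2.11% over all tested genes. The median difference was -0.72. Gbp3 was at 7.13, 6.85, 7.04, 7.27 and 7.28 in 129P2 and at 8.06, 8.02, 8.42, 7.71 and 7.68 in B6, a difference of -0.86 (SE 0.15) without overlap. Irgm1, a regulator of this GTPase family, was at 8.35, 8.34, 8.57, 8.895 and 8.37 and 9.22, 9.35, 9.62, 9.12 and 9.26, a difference of -0.81 (SE 0.11), also without overlap. With the array spread as a covariate only these 2 were called, and with that covariate and the 10 arrays of both strains alone 0 were, although 5 of the 8 had an unadjusted p under 0.05 in that limma fit. In limma's test Gbp4 (adjusted p = 0.00549, and 0.0504 with the covariate) and Gbp7 (0.0115 and 0.0949) were lowest on 129P2 replicate 2, the array of narrowest spread, and both stayed called without it.

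Some genes of antigen presentation were lower. Of 20 tested genes of MHC molecules and peptide loading, 6 were called lower and 0 higher, beside 4.08% lower and 2.11% higher over all tested genes, with a median of -0.17. The covariate left 5 called lower. Psmb8, a subunit of the immunoproteasome that cuts peptides for MHC class I, was at 8.097, 7.88, 8.16, 8.21 and 8.42 in 129P2 and 8.999, 8.97, 8.91, 8.71 and 8.91 in B6, a difference of -0.75 (SE 0.11). Its neighbours Tap1, a subunit of the peptide transporter, and Psmb9, another immunoproteasome subunit, had differences of -0.57 and -0.45. H2-Q4, a non-classical class I molecule, was lower, with a difference of -0.699, and the loading chaperone Tapbp was lower, with a difference of -0.38, with overlapping values and a limma adjusted p of 0.0727 under the covariate. H2-Q2 was called with a difference of -0.29 but not without 129P2 replicate 1, 3, 4 or 5 or B6 replicate 1, 2, 3, 4 or 5 (adjusted p from 0.0505 to 0.126). MHC alleles differ between inbred strains, and how class I probe sets read each allele was not tested. Without 129P2 replicate 2 the list held 4 calls higher and 7 lower, and without 129P2 replicate 3 or B6 replicate 3 it held 1 call higher.

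Fatty acid synthesis genes were lower in 129P2. Of 23 tested genes of fatty acid and triglyceride synthesis, 8 were called lower and 0 higher, beside 4.08% and 2.11% over all tested genes. Of the 23 differences 18 were negative, and the median was -0.43. Scd1, the desaturase that makes monounsaturated fatty acids (probe set 10467979), was at 12.15, 11.87, 11.75, 12.16 and 11.001 in 129P2 and at 13.06, 13.12, 13.46, 13.45 and 13.04 in B6. All 129P2 values were below all B6 values, replicate 5 was the lowest, and the difference was -1.44 (95% interval -1.96 to -0.92, 2.71-fold, limma adjusted p = 0.000553). Elovl6, which elongates the chains that Scd1 desaturates, was at 8.74, 8.102, 9.22, 9.59 and 8.81 in 129P2 and 9.63, 10.83, 10.26, 10.27 and 9.898 in B6, a difference of -1.29 (SE 0.24). Acacb, the acetyl-CoA carboxylase at the mitochondrial surface, was at 7.53, 7.68, 7.93, 8.11 and 7.603 and 8.29, 8.74, 8.69, 9.23 and 8.74, a difference of -0.97 (SE 0.15), without overlap in either case.

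The core enzymes of the pathway overlapped between the strains. Fasn, fatty acid synthase, was at 9.595, 9.44, 10.31, 11.103 and 9.495 in 129P2 and at 10.28, 11.17, 11.35, 11.96 and 11.37 in B6, where 129P2 replicates 3 and 4 lay above B6 replicate 1. Its difference of -1.24 had an SE of 0.295 and a limma adjusted p of 0.0103, or 0.0864 with the array spread as a covariate. Acly, ATP citrate lyase, which supplies the acetyl-CoA, was lower, with a difference of -0.93 (limma adjusted p = 0.0111, with the covariate 0.0984). Srebf1, which encodes SREBP1, was lower, with a difference of -0.51 (limma adjusted p = 0.00965, with the covariate 0.0636). Acaca, the cytosolic acetyl-CoA carboxylase, was called with a difference of -0.53, with -0.56 on its second probe set, but not without 129P2 replicate 1, 2 or 5 or B6 replicate 2, 3, 4 or 5 (adjusted p from 0.0654 to 0.143). With the covariate 4 of the 23 were called lower (median -0.22), and 1 in the fit of both strains alone with the covariate. The mean level of the list ran from 9.91 to 10.47 in 129P2 and from 10.40 to 10.93 in B6, so that it overlapped through B6 replicate 1, and lay at 10.34 to 10.66 in C3H and 9.83 to 10.39 in NZO.

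Cholesterol synthesis genes varied widely between arrays of 1 strain. All 20 tested genes of cholesterol synthesis and SREBP2 targets had negative differences, with a median of -0.60. Of the 20, 9 were called lower, beside 4.08% over all tested genes, but the values of both strains overlapped for each of the 9. The mean level of the 20 genes was 9.03, 9.12, 9.74, 10.18 and 9.12 in 129P2 replicates 1 to 5 and 9.65, 10.20, 10.01, 10.40 and 10.22 in B6. Replicates 1, 2 and 5 of 129P2 were below every B6 array, and replicates 3 and 4 were within the B6 range. C3H ran from 10.12 to 10.66 and NZO from 9.91 to 10.52. Hmgcs1, the first committed enzyme of the pathway (probe set 10412466), was at 8.599, 8.697, 9.92, 10.56 and 8.85 in 129P2 and at 10.12, 10.87, 10.91, 11.43 and 10.995 in B6. Its difference of -1.54 (95% interval -2.23 to -0.86, limma adjusted p = 0.00424) stayed called without any 1 of the 10 arrays. Cyp51, lanosterol demethylase, was at 7.898, 8.07, 9.04, 9.59 and 7.64 in 129P2 and 9.29, 9.99, 9.93, 10.296 and 10.002 in B6, a difference of -1.45 (SE 0.28), and stayed called in the same way.

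The count of calls in this list rested on single arrays. It was 2 without 129P2 replicate 1 or 5 or B6 replicate 4, 3 without 129P2 replicate 2 or B6 replicate 5, 4 without B6 replicate 2 or 3, 7 without 129P2 replicate 3, 13 without B6 replicate 1 and 15 without 129P2 replicate 4. It was 2 with the array spread as a covariate, 2 in the fit of both strains alone and 0 with both, where 2 genes had an unadjusted p under 0.05 in limma's test. Sqle, squalene epoxidase, was at 7.07, 7.296, 8.38, 9.27 and 7.2 in 129P2 and 8.32, 9.197, 8.97, 9.22 and 9.39 in B6, a difference of -1.18 that was not called without 129P2 replicate 1, 2 or 5 or B6 replicate 2, 4 or 5 (adjusted p from 0.0567 to 0.0831). Insig1, which retains SREBP in the endoplasmic reticulum, was called with a difference of -0.79 but not without 129P2 replicate 1, 2, 3 or 5 or B6 replicate 3, 4 or 5 (adjusted p from 0.0531 to 0.096). Srebf2 itself had a difference of -0.28 (SE 0.11) and no call (limma adjusted p = 0.132).

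A sterol regulatory element of the type TCACNCCAC, searched on both strands of the same 250 bases, was found in 1 of the 16 genes of this list with a promoter sequence and in 1.22% of 27025 genes overall. That gene was Hmgcs1, the only gene of the list with a match. In the list of fatty acid and triglyceride synthesis the motif was found in 1 of 18 genes, Mlxipl, which was not called, and in 0 of the 7 called. Genes called lower in 129P2 held it in 6 of 444 cases (1.35%) and genes called higher in 5 of 216 (2.31%). The window of Hmgcs1 is shown with the motif in capitals, 137 bases before the start.
Hmgcs1 (called, chr13:119690174-119690262, plus strand): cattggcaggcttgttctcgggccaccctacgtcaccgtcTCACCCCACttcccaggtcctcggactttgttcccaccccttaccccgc

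**Figure D4:**
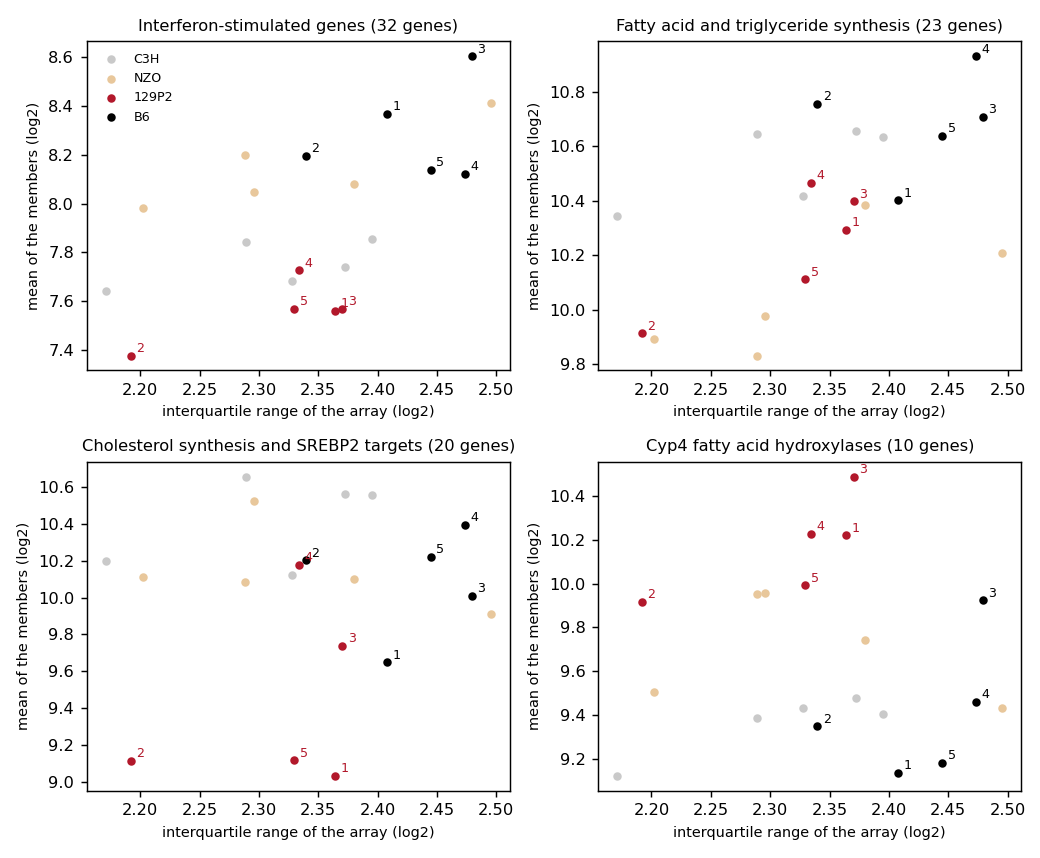
Mean level of 4 gene lists on each array (vertical axes, log2) against the interquartile range of the array (horizontal axes, log2), with 129P2 in red and B6 in black, numbered by replicate, and C3H and NZO in pale colours. The interferon list separates both strains without overlap, the cholesterol list places 129P2 replicates 1, 2 and 5 below every other array, and the Cyp4 list places 4 of 5 129P2 arrays above every B6 array.

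Fatty acid hydroxylases of the Cyp4 family were higher in 129P2. Of 10 tested genes, 5 were called higher and 0 lower, beside 2.11% and 4.08% over all tested genes, with a median difference of 0.40. The 5 form an unbroken run of tested genes: Cyp4a12a, Cyp4a12b, Cyp4a14, Cyp4a10 and Cyp4a31. Cyp4a14, a target of the fatty acid sensor PPARA (probe set 10515187), was at 9.97, 9.38, 11.34, 9.98 and 8.81 in 129P2 and at 6.599, 6.48, 10.598, 6.88 and 6.38 in B6. B6 replicate 3 was at the 129P2 level while the other 4 B6 arrays lay far below every 129P2 array. The difference was 2.51 (95% interval 1.23 to 3.79, limma adjusted p = 0.0131) and 3.31 (SE 0.42) without B6 replicate 3. Cyp4a31 was at 9.57, 8.87, 10.098, 9.401 and 8.57 in 129P2 and 6.93, 7.33, 9.27, 7.54 and 6.78 in B6, a difference of 1.73 (SE 0.404) and of 2.16 without B6 replicate 3. Cyp4a10 was at 9.502, 8.95, 10.11, 9.55 and 8.59 and 7.11, 7.64, 9.45, 7.63 and 7.03, again with B6 replicate 3 high. Its difference was 1.57, or 1.99 without B6 replicate 3, and it was not called without 129P2 replicate 1, 3 or 4 or B6 replicate 1, 2, 4 or 5 (adjusted p from 0.0547 to 0.0828).

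The male-biased members of the run did not share the high value of B6 replicate 3. Cyp4a12a was at 12.82, 12.35, 12.85, 13.004 and 12.998 in 129P2 and at 11.61, 12.31, 11.17, 12.27 and 12.27 in B6, where replicate 3 was the lowest, and the difference of 0.88 (SE 0.17) came without overlap. Cyp4a12b was called with a difference of 0.604 but not without 129P2 replicate 4 or 5 or B6 replicate 1 or 3 (adjusted p from 0.0612 to 0.0747). Counts of calls in the list were 6 with the array spread as a covariate, 3 without 129P2 replicate 4 or B6 replicate 1, 3 in the fit of both strains alone and 1 in that fit with the covariate. Of 28 tested genes of fatty acid oxidation, ketogenesis and other PPARA targets, 0 were called higher and 1 lower, beside 2.11% and 4.08% over all tested genes. The median was 0.07. With the array spread as a covariate 3 were called higher and 0 lower, with a median of 0.18. The lower gene in the fit without it was Ech1, an enzyme of the beta-oxidation of unsaturated fatty acids, with a difference of -0.44, which was not called without 129P2 replicate 1, 2, 4 or 5 or B6 replicate 1, 2, 3, 4 or 5 (adjusted p from 0.0566 to 0.137). Without the covariate, the count was 2 lower without 129P2 replicate 5, and the count of calls higher was 3 without B6 replicate 3 and 1 without 129P2 replicate 2.

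On one side of Cyp2c39 the next tested genes, Cyp2c38 and Cyp2c67, were called higher too. Of 18 tested genes of the Cyp2a, Cyp2b, Cyp2c and Cyp2d families, 3 were called higher and 0 lower, beside 2.11% and 4.08% over all tested genes. The median was 0.10, and the 3, Cyp2c39, Cyp2c38 and Cyp2c67, are adjacent. The counts were the same with the array spread as a covariate. On the other side of Cyp2c39, Cyp2c29 had a difference of 0.76 (SE 0.33) and was not called (limma adjusted p = 0.218). Without B6 replicate 3 a further gene of these families was called lower. Cyp2c38 was at 9.64, 8.98, 9.99, 9.76 and 8.62 in 129P2 and 7.32, 7.55, 9.098, 7.3 and 6.84 in B6, with B6 replicate 3 high as for Cyp4a14. Its difference of 1.78, or 2.15 without B6 replicate 3, was not called without 129P2 replicate 1, 3 or 4 or B6 replicate 1, 4 or 5 (adjusted p from 0.0502 to 0.0714). Cyp2c67 was at 12.74, 12.29, 12.46, 12.41 and 12.67 and 11.84, 12.16, 11.78, 12.19 and 11.68, a difference of 0.58 (SE 0.103) without overlap.

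In the Hsd3b cluster, 2 neighbouring steroid dehydrogenases differed in opposite directions. Hsd3b2 was at 11.17, 10.81, 11.32, 10.98 and 11.296 in 129P2 and 9.997, 9.39, 8.87, 9.93 and 9.68 in B6, higher, with a difference of 1.54 (SE 0.16, limma adjusted p = 5.68e-07). Hsd3b3, its neighbour, was at 10.55, 9.902, 10.32, 10.27 and 10.72 and 11.57, 11.79, 11.08, 11.68 and 11.56, lower, with a difference of -1.18 (SE 0.14, limma adjusted p = 4.17e-06). Neither gene had overlapping values, and the Hsd3b genes are close copies of each other. Hsd3b5, on the other side of Hsd3b2, had a difference of 0.085 (SE 0.25) and was not called (limma adjusted p = 0.892). Of 24 tested steroid dehydrogenases and male-biased genes, 2 were called higher and 3 lower, with a median of 0.06. With the array spread as a covariate 2 were called each way, and leaving out single arrays gave 2 higher and 1 to 4 lower. Over all tested genes 2.11% were called higher and 4.08% lower. Of 24 tested glutathione genes, 2 were called higher and 1 lower (4 and 1 with the array spread as a covariate), with a median of 0.06. The count higher was 4 without B6 replicate 3 and 1 without 129P2 replicate 3, 4 or 5 or B6 replicate 1, 2 or 4, and the count lower was 2 without 129P2 replicate 1 or 5 or B6 replicate 3. Gstt2, a theta class glutathione transferase, had a difference of 0.86 and Gsr, glutathione reductase, of 0.42, both with overlapping values. In limma's test Gsr was not called without 129P2 replicate 3, 4 or 5 or B6 replicate 1, 2, 4 or 5 (adjusted p from 0.0522 to 0.113). Gstm6, a mu class transferase, was lower in 129P2, with a difference of -0.82 (SE 0.13), and Fmo5, a flavin monooxygenase, with a difference of -0.32 (SE 0.08), neither with overlap. In limma's test Fmo5 was not called without 129P2 replicate 3 (adjusted p = 0.0524).

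Secreted proteins differed gene by gene. Of 28 acute phase genes, 3 were called higher and 0 lower, beside 2.11% and 4.08% over all tested genes, with a median of 0.11. The 3 were Apcs, Saa2 and Orm3. The covariate left 2 called higher. Without 129P2 replicate 1 or 5 or B6 replicate 2, 1 gene of the list was called lower. Saa2, serum amyloid A2, was at 11.63, 10.404, 10.74, 9.62 and 11.99 in 129P2 and at 9.07, 9.19, 9.18, 9.36 and 9.504 in B6, without overlap but widely spread within 129P2, where replicate 4 was lowest and replicate 5 highest. Its difference of 1.62 (95% interval 0.64 to 2.59, limma adjusted p = 0.0427) was lost without 129P2 replicate 1, 2, 3 or 5 or B6 replicate 1, 2, 3, 4 or 5 (adjusted p from 0.0501 to 0.128), and with the array spread as a covariate (adjusted p = 0.226). Orm3, an orosomucoid, was dim on all B6 arrays and at least 1.29-fold higher in 129P2. Summed levels of 10 neutrophil markers, 5 of them dim on all 10 arrays, ran on the linear scale from 1520 to 3170 in 129P2 and from 1180 to 1660 in B6, and their part in the acute phase values was not tested.

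Serpins of clade A that lie near each other also differed in opposite directions. Of 14 tested serpins and protease inhibitors, 1 was called higher (2 without B6 replicate 3) and 3 lower, and with the array spread as a covariate 2 each way. Over all tested genes, 2.11% were called higher and 4.08% lower in the fit without the covariate. Serpina11 was at 10.47, 10.11, 10.41, 10.01 and 10.43 in 129P2 and 8.75, 8.82, 8.87, 9.11 and 9.07 in B6, higher, with a difference of 1.36 (SE 0.11). Serpina12, or vaspin, a serpin linked to insulin sensitivity, was at 7.23, 6.63, 7.05, 7.699 and 7.62 in 129P2 and 9.68, 9.71, 7.23, 8.95 and 9.87 in B6. B6 replicate 3 was at the 129P2 level and the other 4 B6 arrays were above every 129P2 array. The difference was -1.84 (SE 0.35) and -2.30 (SE 0.22) without B6 replicate 3.

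Some genes of endoplasmic reticulum stress were lower. Of 24 tested, 3 were called lower (12.5%) and 0 higher, beside 4.08% lower and 2.11% higher over all tested genes. The median was -0.21, 19 of the 24 differences were negative, and 11 genes had an unadjusted p under 0.05 in limma's test. With the array spread as a covariate 2 were called lower. Hyou1, a chaperone of the HSP70 family, was at 9.98, 8.96, 9.45, 10.096 and 9.26 in 129P2 and 10.16, 10.49, 10.44, 10.27 and 10.78 in B6, lower, with a difference of -0.88 (SE 0.18) without overlap. Atf6, a sensor of unfolded protein, was lower, with a difference of -0.501 (SE 0.1), also without overlap. Hspa5, the chaperone BiP, had a difference of -0.57 with overlapping values and in limma's test was not called without 129P2 replicate 2, 3 or 5 or B6 replicate 2, 3 or 5 (adjusted p from 0.0501 to 0.0786). The count was 5 lower without 129P2 replicate 4, and 1 gene was called higher without 129P2 replicate 1 or B6 replicate 3.

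A further list held genes known to differ between laboratory strains. Of 17 tested, 4 were called higher and 3 lower, beside 2.11% and 4.08% over all tested genes. The count lower in this list was 1 without 129P2 replicate 2 or B6 replicate 2, 4 or 5. Nnt, the mitochondrial transhydrogenase that is known to carry a deletion in the substrain C57BL/6J, was at 10.12, 9.74, 10.08, 9.94 and 9.98 in 129P2 and 8.94, 8.78, 9.43, 9.17 and 9.11 in B6, higher, with a difference of 0.88 (SE 0.12), with C3H at 9.84 ± 0.25 and NZO at 9.77 ± 0.105. The labels name no B6 substrain. Glo1, glyoxalase, known to be duplicated in some inbred strains, was at 12.24, 12.25, 12.63, 12.35 and 12.41 in 129P2 and 11.497, 11.32, 11.19, 11.55 and 11.61 in B6, higher, with a difference of 0.95, and its second probe set gave 0.95 as well. Wdfy1, an endosomal protein, was higher, with a difference of 0.46 (SE 0.07), and Ctse and Trim12a are described above. Akr1e1, an aldo-keto reductase, was called lower, with a difference of -0.697, but not without 129P2 replicate 1 or 2 or B6 replicate 1, 2, 4 or 5 (adjusted p from 0.0528 to 0.114). Fcgr4, an Fc receptor of myeloid cells, was called lower, with a difference of -0.47, but not without 129P2 replicate 2, 3 or 4 or B6 replicate 2, 3, 4 or 5 (adjusted p from 0.0642 to 0.143), and with the array spread as a covariate 5 of the 17 were called higher and 1 lower.

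Nudt19, the peroxisomal coenzyme A hydrolase that the series is named for, was at 8.58, 7.93, 8.49, 8.64 and 8.34 in 129P2 and at 8.87, 8.599, 8.71, 8.87 and 8.71 in B6. The values overlapped, and its difference of -0.36 (95% interval -0.58 to -0.13) missed the threshold in limma's test (adjusted p = 0.0516, with the array spread as a covariate 0.256). Of 27 tested genes of coenzyme A metabolism and Nudix hydrolases, 0 were called either way in limma's test, beside 6.19% over all tested genes. Of the 27, 4 had an unadjusted p under 0.05 in that test, and the median was -0.06. With the array spread as a covariate 2 were called higher, 2 were called lower without 129P2 replicate 4, and 1 was called lower without 129P2 replicate 1 or B6 replicate 2.

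The glucose and urea cycle lists held calls near the share of 6.19% over all tested genes. That share was 4.55% for glucose and glycogen metabolism and 3.45% for the urea cycle and amino acid breakdown. Of 22 genes of glucose and glycogen metabolism, 1 was called higher, Pcx, pyruvate carboxylase, with a difference of 0.46, and 1 other was called lower without 129P2 replicate 1 or 4 or B6 replicate 1 or 2. Of 29 genes of the urea cycle and amino acid breakdown, 1 was called lower, Kmo, kynurenine monooxygenase, with a difference of -0.58, and a second without B6 replicate 3. The counts of both lists were the same with the array spread as a covariate. In the plot of called members by list, the interferon-related lists and the lipid synthesis lists are at one end and the Cyp4 genes at the other.

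**Figure D5:**
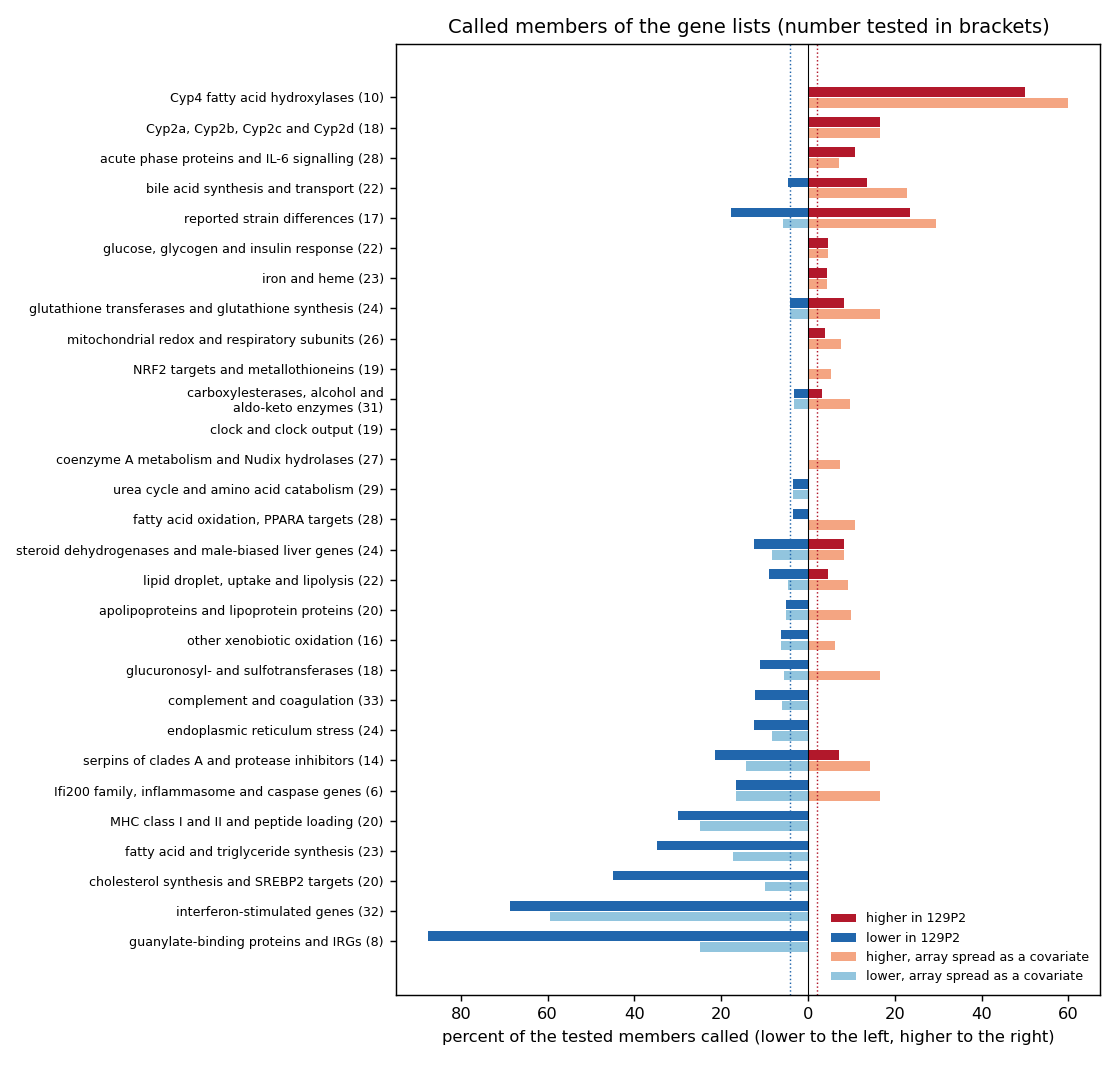
Percent of the tested members of 29 gene lists called lower (to the left) or higher (to the right) in 129P2, in dark colours from the fit without a covariate and in pale colours with the array spread as a covariate, with the number tested in brackets. Dotted lines mark the 4.08% called lower and 2.11% called higher over all tested genes, and the pale bars of the cholesterol list and of the guanylate-binding proteins are much shorter than the dark ones.

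The array spread ended further calls of genes named above. With it as a covariate, limma's adjusted p was 0.262 for Acaca, 0.116 for Insig1, 0.0764 for Sqle, 0.0541 for Cyp4a12b, 0.236 for Ech1, 0.139 for Hspa5, 0.185 for Akr1e1 and 0.206 for Fcgr4. Among the cell type markers named next, it was 0.0753 for Marco and 0.063 for Lyve1. Of the 30 leading genes, Saa2 lost its call with the covariate and the others kept theirs.

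Hepatocyte markers were bright on all 10 arrays. Beside the marker counts below, the share called over all tested genes was 6.19%, and 6.62% with the array spread as a covariate. Of 7 hepatocyte markers, 12 pericentral and 7 periportal ones, 0 were called in limma's test with or without the array spread as a covariate (without it, 1, 4 and 3 had an unadjusted p under 0.05), while leaving out single arrays brought 1 call to a list: without 129P2 replicate 3 among hepatocyte markers, without 129P2 replicate 1 or B6 replicate 1, 2, 3 or 5 among pericentral ones and without 129P2 replicate 1 among periportal ones. Summed hepatocyte marker levels, on the linear scale, ran from 113000 to 120000 in 129P2 and from 113000 to 119000 in B6. Of 15 markers of Kupffer cells and macrophages, Cd163, a haemoglobin scavenger receptor, was higher, with a difference of 0.602 (SE 0.15), and Marco, another scavenger receptor, was lower, with a difference of -0.52 but was not called in limma's test without 129P2 replicate 1 or 3 or B6 replicate 3 (adjusted p from 0.0517 to 0.0765). The 15 endothelial markers held 1 call, Lyve1, lower, with a difference of -0.69 but not called in limma's test without B6 replicate 4 (adjusted p = 0.0503), and the 15 stellate cell and fibroblast markers also held 1, Rgs5, higher, with a difference of 0.66 (SE 0.14). Summed levels of the Kupffer cell and macrophage markers ran from 6260 to 12800 in 129P2 and from 7070 to 10700 in B6. Those of 13 T and NK cell markers, 7 of them dim on all 10 arrays, ran from 1100 to 1330 and from 1160 to 1300. Of the 6 tested T and NK cell markers 1 was called lower, Cd4, with a difference of -0.54, which in limma's test was not called without 129P2 replicate 1, 2 or 3 or B6 replicate 1, 2 or 5 (adjusted p from 0.0513 to 0.0862). In the fit with the array spread as a covariate, calls numbered 2 higher and 0 lower among the Kupffer cell and macrophage markers, 2 higher and 0 lower among the endothelial ones, 4 higher and 0 lower among the stellate cell and fibroblast ones, and 0 higher and 1 lower among the T and NK cell ones. The part of immune cells in the interferon values was not tested.

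Most neighbours of called genes were not called. A called neighbour was still more frequent beside called genes than beside the others, a pattern given here as counts with no test. Of 1753 neighbours of called genes in the order of tested genes along the chromosomes, 228 were called, beside 5.74% of the neighbours of genes not called. Runs of 2 or more called genes numbered 92, and 19 held 3 or more. The longest was that of the 5 Cyp4a genes, and runs of 3 included Ifit2, Ifit3 and Ifit1, Psmb9, Tap1 and Psmb8, Gbp8, Gbp9 and Gbp4, and Cyp2c39, Cyp2c38 and Cyp2c67. Neighbouring genes of a family can share sequence, and how much of this adjacency comes from shared probes was not tested.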

How the data were processed

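RNA of the 10 liver samples compared, and of 10 further ones of C3H and NZO, was hybridized to 1 whole-transcript array each. Per the labels' protocols, RNA with an integrity number above 8 was used, 150 ng of it for amplification. The deposited log2 values were made by the authors using Affymetrix Expression Console and its RMA summary, which the submitters' processing notes name. Versions are not given in the sources used here. All sample columns were mapped to a sample. Replicate numbers follow the series order inside each strain and pair no samples.

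Of 35556 probe sets, 21789 had 1 gene symbol in the platform annotation, 1621 had several and 12146 were unnamed here. For 999 genes with several probe sets the one of highest mean was taken. Of 19938 genes, 14190 passed the filter on dim values. The test was limma's (version 3.58.1, R 4.3.3), with 1 mean per strain, an intensity trend and 16 residual and 6.37 prior degrees of freedom. Python 3.11.15 with matplotlib 3.10.9 drew the figures. Promoter windows are those of RefSeq on GRCm38.p6. Tested on simulated data of 14190 genes with 200 changed, the fit called 83.6%, 98.5% and 100% of genes changed by 0.5, 1 and 2 log2 units, with 5 false calls of 193. The simulated noise was drawn independently for each gene and array. Because it held no spread shared within an array, these rates do not cover errors that such a spread can bring.

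Named genes were the 15 largest differences each way among called genes without overlap, called and leading members of each list, Nudt19, neighbours of the leading genes and genes with reported strain differences. Symbols of predicted genes and clones, of small RNAs, and of olfactory and immune receptor genes were counted without a name, 26 of the 661 called genes without overlap. Members and lists were chosen with earlier results of these data known. Alternatives varied the filter, normalization, moderation, array weights, probe sets, samples in the fit, array spread as a covariate and each array in turn. The bound for dim genes and the fit of both strains alone with the covariate were added after the data were seen.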

Additional observations from a re-analysis of the deposited data

Results flagged for a closer look

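In 13 of the 214 groups of 5 arrays examined (6.07%), 1 array lay far from the other 4 by Dixon's test, where the gap to the nearest value exceeded 0.71 of the range. Chance flags about 1 in 20 such groups. On 129P2 replicate 2 the value was the lowest of its strain for Akr1e1 (8.434, with the next at 8.969), Cyp4a12a (12.351, next 12.816), Gbp4 (5.719, next 6.559), Gbp7 (7.744, next 8.53) and Gstm6 (8.463, next 9.069), and so was the interquartile range of the array (2.192, next 2.33). On B6 replicate 3 the value was the highest of its strain for Cyp4a14 (10.598, next 6.877), Cyp4a10 (9.452, next 7.641), H2-Q4 (8.375, next 8.141) and Marco (8.099, next 7.696). The other 3 flags were the lowest values of Cd4 on 129P2 replicate 1 (6.381, next 6.679), of Fmo5 on B6 replicate 2 (11.729, next 11.85) and of Gbp4 on B6 replicate 5 (6.879, next 7.321). The part of array spread in the low values of 129P2 replicate 2 was not tested beyond the fits with the covariate.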

How the results depend on the processing

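The 879 called genes became 172 (59 higher, 113 lower) in a test against a fold of 1.2, and 323 (183 higher, 140 lower) when only both strains were fitted with the array spread as a covariate. Calls higher in 129P2, 300 of the 879, rose to 517 with the covariate over all 4 strains and to 527 with array weights, which gave 1290 calls in all. Leaving out 1 array at a time gave 655 to 792 calls, of which 230 to 296 were higher and 421 to 541 lower, and 70 to 80 calls of at least 2-fold. The difference in array interquartile range stayed between -0.133 and -0.0797 (exact permutation p from 0.0159 to 0.0476). The count of called genes under every other alternative was within 1.5 times of 879. No named gene reversed its called direction, but the balance of calls did turn from more lower to more higher in both fits with the covariate (517 against 423, and 183 against 140). Of 118 named genes that were called, 39 kept the call in all 23 alternatives and 79 lost it in at least 1, of which 31 did so with the covariate and 64 in the fit of both strains alone with it; the cause was not tested. No paired analysis was possible because the labels carry no replicate numbers shared between strains. The number of arrays and dim signal limit the precision, and 5748 genes were too dim to be tested.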

Other observations

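Genes of transport not described above are named here because they were called higher in 129P2. In the fit without a covariate their lists did not all lean that way. The list of lipid droplet, uptake and lipolysis genes held 1 call higher and 2 lower of 22 tested, with a median of -0.09. That of bile acid synthesis and transport held 3 higher and 1 lower of 22. That of iron and heme held 1 higher and 0 lower of 23. Over all tested genes 2.11% were called higher and 4.08% lower. With the array spread as a covariate the lipid droplet list held 2 higher and 1 lower, the bile acid list 5 and 0, and the iron list 1 and 0. In that fit 3.64% of all tested genes were called higher and 2.98% lower. Vldlr, a receptor for triglyceride-rich lipoproteins, was at 7.63, 7.62, 7.89, 7.52 and 7.53 in 129P2 and at 6.43, 6.68, 7.002, 6.47 and 7.03 in B6, a difference of 0.91 (limma adjusted p = 3.48e-06) that kept its call in every alternative. Slc40a1, ferroportin, the exporter of cellular iron, was at 11.098, 10.66, 11.22, 10.75 and 11.395 and 10.38, 10.38, 10.503, 10.41 and 10.29, a difference of 0.63 (limma adjusted p = 0.0114) and of 0.91 with the array spread as a covariate. Slco1a4, an uptake carrier of organic anions, had a difference of 0.84 with overlapping values, and in limma's test it was not called without B6 replicate 2 (adjusted p = 0.0584).

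A run of adjacent called genes that belong to no family, chosen after their values were seen, was lower in 129P2. Tm7sf3 had a difference of -0.58 (limma adjusted p = 0.000364), Med21, a subunit of the Mediator complex, of -0.73 (0.00159), and Stk38l, a kinase of the NDR family, of -0.46 (0.00119). Fgfr1op2, at the end of the run, had -0.42, and in limma's test was not called without 129P2 replicate 2 or 5 or B6 replicate 3, 4 or 5 (adjusted p from 0.0557 to 0.086) or with the array spread as a covariate (adjusted p = 0.146). Parp14, Dtx3l and Parp9, adjacent genes of ADP-ribosylation known to respond to interferon, had differences of -0.62, -0.465 and -0.41, and in limma's test Dtx3l was not called without 129P2 replicate 1 or 2 (adjusted p from 0.0563 to 0.0623) or with that covariate (adjusted p = 0.116).

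A gene of skeletal muscle was high on single arrays. Acta1, skeletal muscle actin, was at 11.003 on B6 replicate 5 and at 7.94 to 8.016 on the other 4 B6 arrays, and at 9.255 and 9.48 on 129P2 replicates 1 and 2. Summed linear levels of 8 muscle markers ran from 964 to 6130 in B6 and from 991 to 2350 in 129P2, and 0 of the 7 tested were called in limma's test (0 had an unadjusted p under 0.05).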
